A study of Mus musculus with 12 samples.

Results

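The loci described here are those whose mean RNA level was far higher in embryoid bodies lacking Notch1 than in each other group of the series. The loci were chosen by their mean levels. A locus was taken when its mean in Notch1-/- day 6 libraries was at least 5 CPM (the usual per-million scaling of a count by the total of its library) and at least 4 times the mean of each of the other 3 groups. Of 40039 merged loci, 9859 reached 5 CPM in that group, and 45 of these (0.456%) also met the fold limit. Because this choice used the Notch1-/- day 6 values against every other group, those differences are given as a description and are not tested.

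The 12 libraries came from C57BL/6J mouse embryonic stem cells in 4 groups of 3. They were wild type (WT) at day 0, WT at day 6, Notch1-/- at day 0 and Notch1-/- at day 6. The day 0 cells were undifferentiated and kept in medium with LIF at 1000 U/ml, on fibroblast feeders or on gelatin, and which of these held for a given library is not stated. For day 6, drops of 1000 cells were hung to form embryoid bodies under conditions meant to give heart cells, and the bodies were harvested after 6 days. How Notch1 was removed, and whether the deficient cells were 1 clone, is not stated in the labels. The series design speaks of biological replicates, but separate cultures are not named in the labels, so that p-values speak of the spread between libraries, which may be technical. Each embryoid body holds many cell types, and in such bulk RNA more cells of a type and more RNA per cell cannot be told apart.

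Notch1 is a cell-surface receptor that is cleaved after binding a ligand on a neighbouring cell and then acts in the nucleus with the DNA-binding protein RBPJ. In the embryo, epiblast cells that enter the primitive streak under Wnt, Nodal and FGF signals become mesoderm and endoderm. The streak and its organiser also secrete inhibitors of these signals, and presomitic mesoderm forms behind it in the tail bud.

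The libraries held from 100637179 to 134662426 counts. The targeted gene was checked before all others. Notch1 stood at 70.3, 23.9 and 35.7 CPM in WT day 0 libraries 1, 2 and 3, with 38.2, 30.2 and 32.1 CPM in the WT embryoid bodies. The deficient day 0 libraries held 3.81, 3.51 and 4.46 CPM, and those of day 6 held 6.68, 4.79 and 4.94 CPM. All 6 deficient libraries lay below all 6 WT libraries.

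Together the 45 loci took 2249, 2139 and 1971 CPM in Notch1-/- day 6 libraries 1, 2 and 3. In the 9 other libraries their sum ran from 154 to 340 CPM. The ratio of the Notch1-/- day 6 mean to the next highest group ran from 4.09 to 22.2, with a median of 5.52, and reached 10 in 8 loci. For 44 of the 45, all 3 Notch1-/- day 6 libraries lay above all 9 others. Among all loci of at least 5 CPM this held for 8.15%, and since the choice of loci used these values nothing is read from the count. The lowest Notch1-/- day 6 library was at least 2 times the highest of the 9 others in 36 loci and at least 4 times in 14.

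The next highest group was WT day 6 for 26 of the loci, WT day 0 for 11 and Notch1-/- day 0 for 8. Among all loci of at least 5 CPM these shares were 44.4%, 29.0% and 26.6%. At the fold limit, the closest loci inside were Zyx (4.09), Dpysl5 (4.25) and Adcyap1r1 (4.26). The closest outside were St8sia3 (3.97), Arsi (3.94) and Bcl11a (3.93). At the level limit, Tph1 (5.39 CPM), Cadps2 (5.53 CPM) and Oprd1 (5.96 CPM) lay just inside. Mesp1 (4.87 CPM, with a ratio of 28.0), Otud7a (4.82 CPM) and Serpina3j (4.60 CPM) lay just outside.

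**Figure D1:**
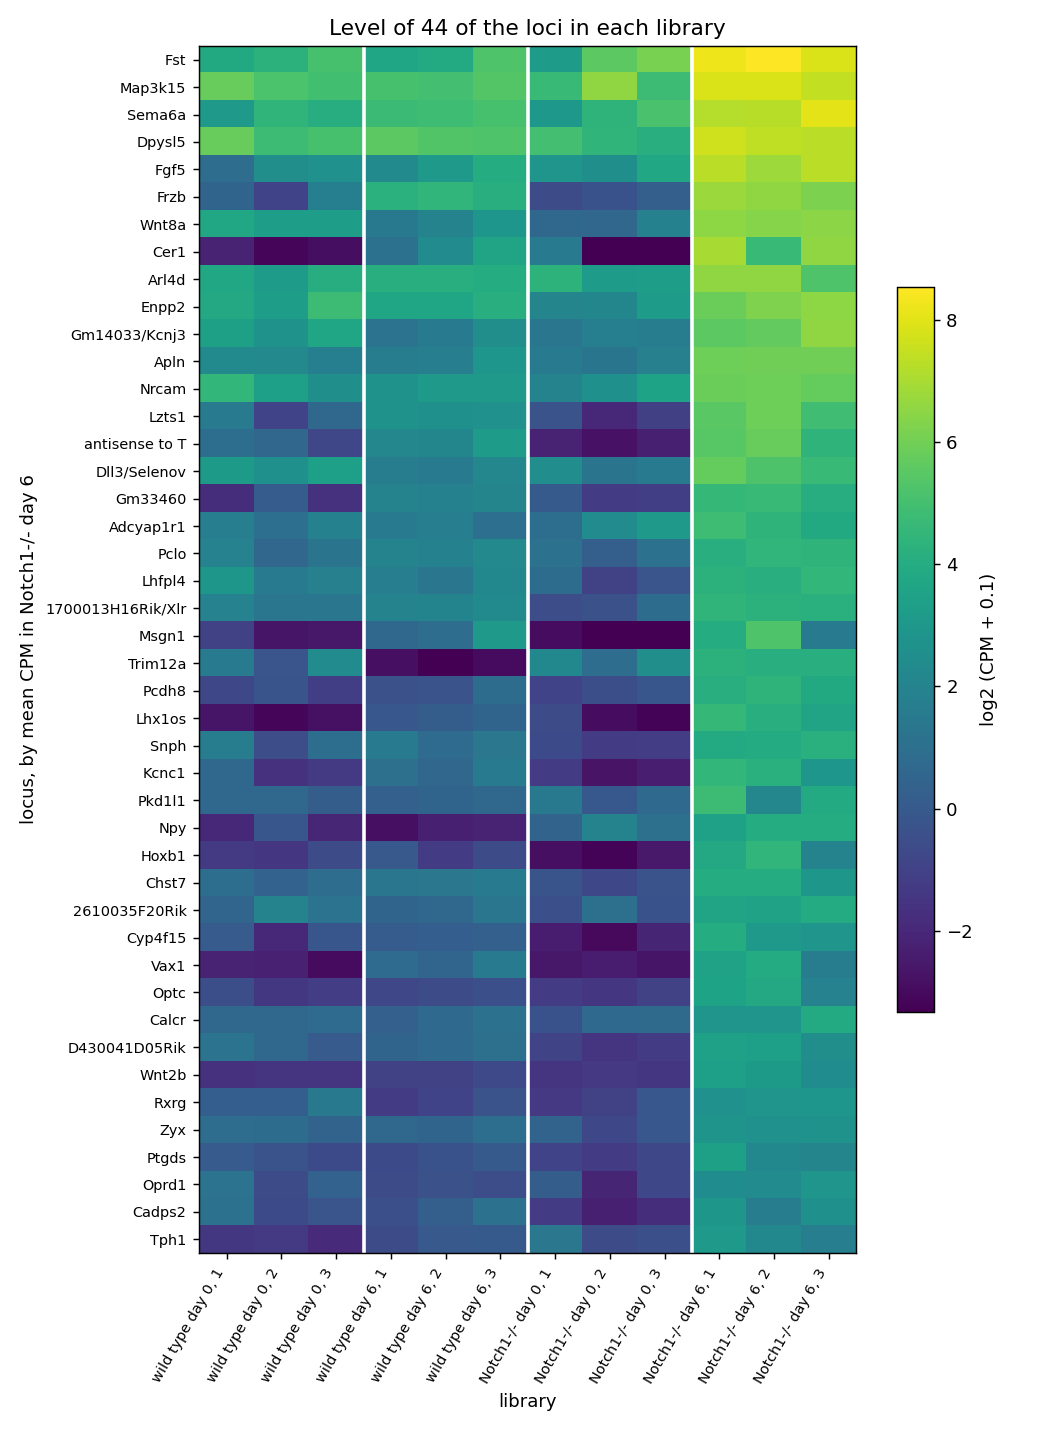
Level of 44 of the 45 loci (rows, by mean CPM in Notch1-/- day 6) in each of the 12 libraries (columns), as log2 of CPM plus 0.1. The 3 Notch1-/- day 6 columns are the brightest in all rows but Msgn1, where library 3 (2.99 CPM) lies under WT day 6 library 3 (8.49 CPM).

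Signals and inhibitors of signals made up 9 of the loci, counting a locus that merges the Notch ligand gene Dll3 with Selenov. Their summed level was 912, 806 and 755 CPM in Notch1-/- day 6 libraries 1, 2 and 3, and from 31.0 to 103 CPM in the 9 others. Fst (chromosome 13, 115242470 to 115253450, mm9) encodes follistatin, which binds and blocks activin. It had 297, 370 and 233 CPM in the 3 Notch1-/- day 6 libraries. It had 14.7, 19.4 and 33.6 CPM in WT day 0, 12.6, 15.0 and 37.8 CPM in WT day 6, and 9.08, 46.1 and 69.7 CPM in Notch1-/- day 0. The groups did not overlap, and the highest library elsewhere was Notch1-/- day 0 library 3. Per length, at 72.7 FPKM (the deposited values, scaled by transcript length), Fst was also the highest of the 45 in the group, ahead of Zyx (43.5 FPKM), Arl4d (38.1 FPKM) and Fgf5 (37.2 FPKM).

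Cer1 (chromosome 4, 82522382 to 82531124) encodes Cerberus-like, a secreted antagonist of Nodal, BMP and Wnt made by anterior endoderm. Its levels in Notch1-/- day 6 libraries 1, 2 and 3 were 125, 26.0 and 93.1 CPM, against 2.11, 5.19 and 11.97 CPM in WT day 6. It had 0.117, 0.0165 and 0.0354 CPM in WT day 0. In Notch1-/- day 0 it had 2.89 CPM in library 1 and 0 counts in libraries 2 and 3. Library 2 of Notch1-/- day 6 lay 4.81 times below library 1, yet above every library of the other groups.

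Frzb (chromosome 2, 80252127 to 80288651) encodes a secreted Wnt-binding protein. It had 108, 93.5 and 73.9 CPM in Notch1-/- day 6, and 19.0, 21.9 and 16.9 CPM in WT day 6. The day 0 values were 1.31, 0.421 and 3.34 CPM for WT and 0.576, 0.694 and 1.10 CPM for Notch1-/- libraries. All day 6 libraries of either genotype thus lay above all day 0 libraries.

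Wnt8a (chromosome 18, 34700834 to 34709468), a Wnt ligand of the early streak, had 90.3, 83.1 and 87.3 CPM in Notch1-/- day 6. The WT values were 13.6, 9.85 and 9.97 CPM before differentiation. All WT day 6 libraries lay below them, with 2.67, 3.79 and 7.37 CPM. In Notch1-/- day 0 it had 1.51, 1.39 and 3.57 CPM, which were below all WT day 0 libraries. Wnt2b (chromosome 3, 104729289 to 104767256), another ligand of the family, had 10.1, 8.66 and 5.32 CPM in Notch1-/- day 6 and at most 0.521 CPM elsewhere, a ratio of 18.4. Its locus shares 86.27% of its exon length with St7l on the opposite strand. St7l itself had 4.46 ± 0.231 FPKM (SD, n = 3) in Notch1-/- day 6, below its WT day 6 mean, with a ratio of 0.831 to the highest other group.

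Fgf5 (chromosome 5, 98682444 to 98706049), a growth factor that marks the primed epiblast, had 157, 111 and 157 CPM in Notch1-/- day 6. Elsewhere it ran from 1.80 to 16.3 CPM, the highest being WT day 6 library 3. Apln (chromosome X, 45378318 to 45399563) encodes apelin, the peptide ligand of a receptor of early mesoderm and vessels. It had 60.8, 61.6 and 62.5 CPM, the narrowest spread of the 45 in that group, and at most 7.44 CPM elsewhere. Npy (chromosome 6, 49772728 to 49779504) encodes neuropeptide Y and had 10.9, 15.8 and 16.1 CPM. Its next group was Notch1-/- day 0, with 1.25, 3.88 and 1.98 CPM, while WT libraries held at most 0.792 CPM.

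A locus that merges Dll3 with Selenov (chromosome 7, 29061829 to 29087470) had 52.8, 36.9 and 26.3 CPM in Notch1-/- day 6 and from 2.27 to 10.2 CPM elsewhere. Dll3 encodes an atypical Notch ligand of presomitic mesoderm. Of the merged locus, 61.14% of the exon length is shared with Eid2b, which did not follow it (1.28 ± 0.193 FPKM, SD, n = 3, a ratio of 0.491 to the highest other group). How the reads divide between Dll3 and Selenov cannot be told from the locus.

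Transcription factors accounted for 4 loci. Msgn1 (chromosome 12, 11212486 to 11216005) encodes mesogenin, a factor of presomitic mesoderm. It had 15.9, 38.0 and 2.99 CPM in Notch1-/- day 6 and 1.52, 1.76 and 8.49 CPM in WT day 6. It had 0.393, 0.0578 and 0.0709 CPM in WT day 0, and 0.0298 CPM in library 1 and 0 counts in libraries 2 and 3 of Notch1-/- day 0. It was the sole member whose groups overlapped, through library 3 of each day 6 group.

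Hoxb1 (chromosome 11, 96227043 to 96229671), a homeobox gene of the posterior streak and the hindbrain, had 14.1, 22.4 and 3.85 CPM in Notch1-/- day 6. No other library passed 0.907 CPM, and the ratio of 22.2 was the highest of the 45. Vax1 (chromosome 19, 59238968 to 59246088), a homeobox gene of the ventral forebrain and eye, had 11.3, 15.4 and 3.00 CPM. Library 3 lay barely above WT day 6 library 3 at 2.74 CPM. Rxrg (chromosome 1, 169528434 to 169569756), a retinoid X receptor, had 6.18, 7.05 and 7.50 CPM against at most 2.67 CPM elsewhere. In Msgn1, Hoxb1 and Vax1 alike, library 3 of Notch1-/- day 6 was the lowest of its group and library 2 the highest.

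Genome sequence before the start sites was read for the members with an entry in a table of RefSeq promoter windows (build GRCm38.p6, 250 bases before to 50 after each start). Of 41 loci linked to 1 gene, 33 had 37 windows there. The motifs were searched on either strand as exact letters. The RBPJ motif GTGGGAA stood in 6 of the 37 windows (16.2%, against 6.38% of all 32851), namely those of Cyp4f15, D430041D05Rik, Frzb, Gm33460, Msgn1 and Optc. The TCF/LEF motif CTTTGAT stood in 3 (8.11% against 3.73%), those of Msgn1, Tph1 and Vax1, and the CDX motif CCATAAA in that of Npy (2.70% against 2.75%). The T-box motif AGGTGTGA (1.28% of all windows) and the FOXH1 motif AATCCACA (0.855%) were in none. A match is a description of letters and not a bound site. The 250 bases before the start are shown for 3 members that the account turns on, 5′ to 3′ on the gene's strand, with capitals marking the motifs. They are Msgn1, which holds both the RBPJ and the TCF/LEF letters on the reverse strand (chr12:11208949-11209198, minus), Frzb (chr2:80447397-80447646, minus) and the noncoding Gm33460 opposite Eomes (chr9:118489780-118490029, minus), which hold the RBPJ letters on their own strand.
Msgn1: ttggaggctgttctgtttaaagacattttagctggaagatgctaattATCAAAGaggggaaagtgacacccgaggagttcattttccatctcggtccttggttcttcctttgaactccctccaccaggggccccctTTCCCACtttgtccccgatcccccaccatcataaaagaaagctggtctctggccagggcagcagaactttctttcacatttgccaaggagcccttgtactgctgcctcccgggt
Frzb: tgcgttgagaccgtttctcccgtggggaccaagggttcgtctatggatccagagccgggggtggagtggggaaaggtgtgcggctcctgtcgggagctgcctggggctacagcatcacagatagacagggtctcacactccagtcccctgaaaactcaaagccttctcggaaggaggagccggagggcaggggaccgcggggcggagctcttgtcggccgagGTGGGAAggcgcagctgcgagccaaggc
Gm33460: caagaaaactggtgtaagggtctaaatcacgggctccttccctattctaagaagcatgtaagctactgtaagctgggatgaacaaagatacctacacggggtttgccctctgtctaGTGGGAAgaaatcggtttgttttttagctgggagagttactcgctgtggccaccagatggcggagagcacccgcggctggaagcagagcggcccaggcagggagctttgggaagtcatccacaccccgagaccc

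Loci on the strand opposite a developmental regulator made up 4 of the 45. These are an unnamed locus opposite T, Gm33460 opposite Eomes, Lhx1os opposite Lhx1 and 2610035F20Rik opposite Zic2. T (Brachyury) and Eomes are T-box factors of the streak, Lhx1 is a homeobox factor of the organiser and Zic2 a zinc finger factor of epiblast and neural plate. The locus opposite T (minus strand of chromosome 17, 8625306 to 8635361) had 44.0, 55.5 and 20.5 CPM in Notch1-/- day 6 and 4.41, 4.20 and 9.16 CPM in WT day 6. It had 1.82, 1.39 and 0.478 CPM in WT day 0 and at most 0.119 CPM in Notch1-/- day 0. It shares 51.67% of its exon length with T. The labels give no strand setting for the counting, so reads of T and of this locus cannot be told apart.

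The genes opposite these loci are given by the deposited FPKM, since a read overlapping several loci seems to be missing from the counts. T had 141, 178 and 58.5 FPKM in Notch1-/- day 6 against 11.7, 11.4 and 28.0 FPKM in WT day 6. Eomes had 104, 106 and 62.5 FPKM against 12.6, 12.5 and 15.1 FPKM. Lhx1 had 110, 69.7 and 44.7 FPKM against 3.22, 2.81 and 4.73 FPKM. Library 3 was the lowest Notch1-/- day 6 library for all 3 of these, as for the loci opposite them. Zic2 had 45.8, 41.3 and 56.2 FPKM against 6.09, 6.02 and 10.2 FPKM in WT day 6, and its ratio to the next group, WT day 0, was 3.94.

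Lhx1os (chromosome 11, 84330371 to 84349332) had 23.5, 17.5 and 12.02 CPM in Notch1-/- day 6 and at most 1.32 CPM elsewhere. It shares 77.89% of its exon length with Lhx1. Gm33460 (chromosome 9, 118367002 to 118398965) had 23.6, 26.3 and 16.4 CPM, and 3.79, 3.62 and 4.06 CPM in WT day 6. It shares 61.58% of its exon length with other loci, Eomes among them. The locus 2610035F20Rik (chromosome 14, 122854499 to 122882077) had 11.97, 11.3 and 15.6 CPM and at most 3.85 CPM elsewhere. By FPKM it did not keep a ratio of 4, and 86.82% of its exon length is shared. In Notch1-/- day 0, library 1 stood above libraries 2 and 3 for Lhx1os (0.547 against 0.0319 and 0.00974 CPM) and for Lhx1 (1.51 against 0.0256 and 0.0380 FPKM), as it did for Cer1.

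**Figure D2:**
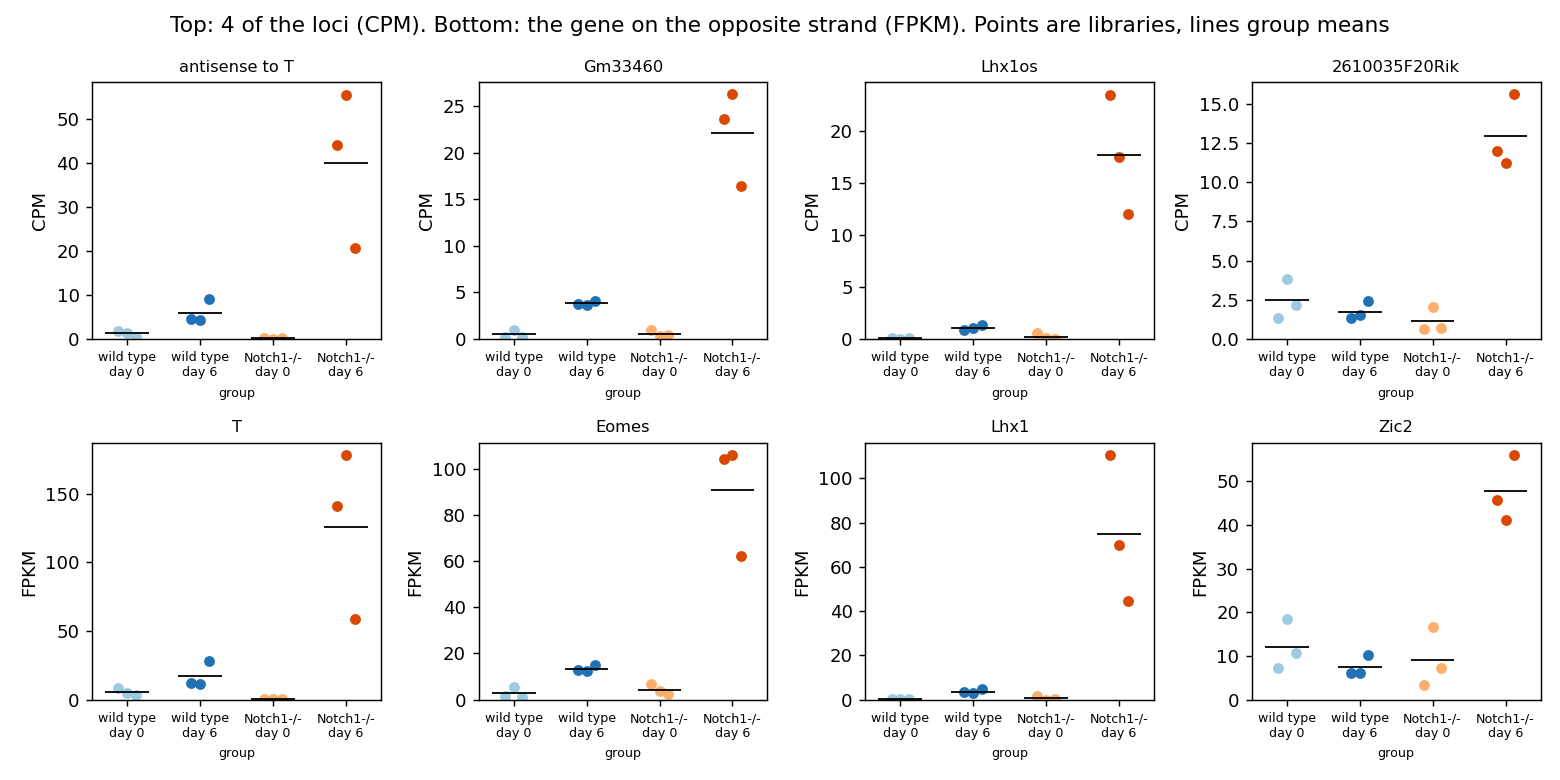
Level in each library of 4 of the loci (top, CPM) and of the gene on the opposite strand of each (bottom, FPKM), by group on the horizontal axis, with 1 point per library and a line at the group mean. In all 8 panels the 3 Notch1-/- day 6 libraries lie above the other 9, and for T they span 58.5 to 178 FPKM.

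Applying the same limits to FPKM in place of CPM gave 29 loci (0.335% of the 8667 loci with at least 5 FPKM), 20 of them among the 45. The other 9 were T, Eomes, Mixl1, Lhx1, Epha1, Sp5, Mesp1, Gsc and an unnamed locus, and 7 of the 9 shared over 50% of their exon length with another locus. Mixl1, a homeobox gene of the streak, had a mean of 87.5 FPKM in Notch1-/- day 6 against 8.58 FPKM in WT day 6. This difference was not seen in the counts of Mixl1, whose locus shares 50.25% of its exon length. By CPM the ratio of Notch1-/- day 6 to WT day 6 was 1.17, with a mean of 9.32 CPM in Notch1-/- day 6. The log2 difference was 0.25 (SE 0.21, adjusted p = 0.389, edgeR). Mesp1, a factor of nascent heart mesoderm, had 31.8 against 1.00 FPKM. Sp5, a Wnt target, had 34.3 against 8.15 FPKM, and Gsc, an organiser homeobox gene, 15.0 against 1.55 FPKM. The unnamed locus rested on 59.0 FPKM in Notch1-/- day 6 library 3, with 0.0355 and 0.0271 FPKM in libraries 1 and 2. Of the 45 loci, 40 kept a ratio of at least 4 by FPKM. Of the 5 that did not, 2610035F20Rik (3.60), Pclo (3.81), Dpysl5 (3.87) and Oprd1 (3.97) lay just under it. The ratio of Zyx by FPKM was 1.20, with means of 43.5 FPKM in Notch1-/- day 6 and 36.1 FPKM in WT day 6. Zyx, which encodes a focal adhesion protein, shares 64.15% of its exon length with Epha1 on the opposite strand. Epha1, an ephrin receptor, had 37.2, 35.8 and 32.7 FPKM in Notch1-/- day 6 and at most 7.54 FPKM elsewhere.

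Adhesion, guidance and matrix genes numbered 6. Sema6a (chromosome 18, 47404908 to 47530040), a membrane semaphorin that guides axons and migrating cells, had 149, 155 and 260 CPM in Notch1-/- day 6 and from 7.85 to 34.9 CPM elsewhere. Dpysl5 (chromosome 5, 31013937 to 31101742), a cytoplasmic protein of growing neurites, had 202, 166 and 159 CPM against at most 54.4 CPM. Nrcam (chromosome 12, 45429857 to 45706168), a neuronal adhesion molecule, had 58.1, 60.3 and 52.3 CPM against at most 22.7 CPM. For these 3 genes no library of another group reached the lowest Notch1-/- day 6 library.

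Pcdh8 (chromosome 14, 80166582 to 80171119) encodes paraxial protocadherin, an adhesion protein of presomitic mesoderm. It had 17.6, 21.0 and 14.4 CPM in Notch1-/- day 6 and from 0.363 to 1.71 CPM in the other 9 libraries. Optc (chromosome 1, 135790558 to 135804737), a small proteoglycan known from the eye, had 11.6, 14.0 and 3.72 CPM against at most 0.636 CPM. Their ratios of 17.2 and 17.6 by CPM were among the 8 of at least 10, with those of Hoxb1, Wnt2b, Lhx1os, Fgf5, Apln and Cer1. By FPKM the ratio of Lhx1os was 7.38.

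Channels, receptors and synaptic genes numbered 10, with ratios of 4.26 to 9.35. The highest by CPM was a locus that merges the noncoding Gm14033 with Kcnj3 (chromosome 2, 55264226 to 55450747), an inwardly rectifying potassium channel. It had 46.9, 50.9 and 93.0 CPM in Notch1-/- day 6, and its next group was WT day 0 with 10.6, 6.45 and 12.7 CPM. Kcnc1, a voltage-gated potassium channel, had 22.8, 18.0 and 7.50 CPM. Pkd1l1, a polycystin known from left-right patterning at the node, had 27.9, 4.33 and 15.3 CPM, and its library 2 was 6.45 times below library 1. Elsewhere Kcnc1 had at most 2.74 CPM and Pkd1l1 at most 2.68 CPM. The receptors of the neuropeptide PACAP (Adcyap1r1, 28.9, 21.1 and 14.6 CPM), of calcitonin (Calcr, 7.11, 7.04 and 14.9 CPM) and of opioids (Oprd1, 5.39, 5.25 and 7.23 CPM) also belonged here. The remaining 4 were Pclo, Cadps2 and Snph, of nerve terminals and secretion, and Lhfpl4, a partner of GABA receptors, with means of 5.53 to 20.2 CPM.

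Enzymes and regulators of signalling inside the cell numbered 8. Map3k15 (chromosome X, 156426170 to 156578354), a stress-pathway kinase, had 233, 233 and 177 CPM in Notch1-/- day 6. In Notch1-/- day 0 it had 25.3, 93.0 and 27.6 CPM, so that library 2 stood apart. Its locus shares 11.63% of its exon length with Pdha1 on the opposite strand. Pdha1, a subunit of pyruvate dehydrogenase, had 444, 448 and 375 FPKM in Notch1-/- day 6, 98.9, 432 and 91.0 FPKM in Notch1-/- day 0, and from 72.4 to 85.2 FPKM in the 6 WT libraries. For both genes, library 2 of Notch1-/- day 0 was the highest library outside Notch1-/- day 6. For Pdha1 it also lay above Notch1-/- day 6 library 3, so that these groups overlapped, which those of Map3k15 did not.

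Enpp2 (chromosome 15, 54670393 to 54751723) encodes autotaxin, which makes lysophosphatidic acid, and had 58.1, 75.7 and 90.8 CPM against at most 27.7 CPM elsewhere. Arl4d, a small GTPase, had 94.7, 93.6 and 38.7 CPM against at most 20.2 CPM. The others described were Chst7 (a sulfotransferase), Cyp4f15 (a cytochrome P450), Ptgds (prostaglandin D synthase) and Tph1 (the first enzyme of serotonin synthesis), with means of 5.39 to 13.4 CPM. The Chst7 locus shares 74.18% of its exon length with Slc9a7 on the opposite strand. Slc9a7 had a mean of 2.29 FPKM in Notch1-/- day 6, a ratio of 2.08 to the highest other group. Cyp4f15 had 16.1, 8.27 and 7.25 CPM and at most 1.15 CPM elsewhere. Ptgds had 10.5, 4.55 and 4.11 CPM and at most 0.961 CPM elsewhere.

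The last 4 loci fell in none of these groups. Lzts1, a leucine zipper protein, had 45.3, 61.1 and 29.5 CPM in Notch1-/- day 6, and at most 6.71 CPM elsewhere. Trim12a, a member of the TRIM family with close copies that may share its reads, had 19.3, 17.5 and 17.5 CPM. It had at most 0.0416 CPM in WT day 6, against 2.86, 0.759 and 5.18 CPM in WT day 0 and 4.55, 1.81 and 5.75 CPM in Notch1-/- day 0. A locus that merges 1700013H16Rik with Xlr, on chromosome X in a family of near-identical copies, had 21.2, 19.6 and 18.1 CPM, and its values are uncertain for that reason. D430041D05Rik had 11.1, 10.1 and 5.64 CPM.

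The loci varied more among the 3 Notch1-/- day 6 libraries than most. The SD divided by the mean had a median of 0.324 over the 45, against 0.0843 over the 9859 loci of at least 5 CPM in that group. The median level was lower, at 18.1 CPM against 40.6 CPM, and the choice used the mean of these same libraries. The part of level and choice in the spread was not tested. The highest library was at least 4 times the lowest in 5 of the 45 (Msgn1, Pkd1l1, Hoxb1, Vax1 and Cer1) and in 56 of the 9859. Library 3 was the lowest of the 3 for 25 loci (55.6%, against 31.9% of all loci of at least 5 CPM), and library 1 the highest for 20 (44.4% against 29.3%). Calcr, the Gm14033/Kcnj3 locus and Sema6a were among those that went the other way, with library 3 the highest. In WT day 6, library 3 was the highest of its group for 36 of the 45 (80.0% against 44.6%).

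Marker lists for other cell types differed among the same libraries. Summed over 5 genes with little exon sharing, primed epiblast markers that are not among the 45 took 1586, 1295 and 2530 CPM in Notch1-/- day 6 libraries 1, 2 and 3. Cardiac progenitor markers (9 genes summed) took 589, 514 and 197 CPM, and tail bud markers (16 genes) 575, 564 and 386 CPM. Most of the tail bud sum was Vrtn, with 318, 317 and 207 CPM. The part of these differences in the spread of the loci was not tested.

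**Figure D3:**
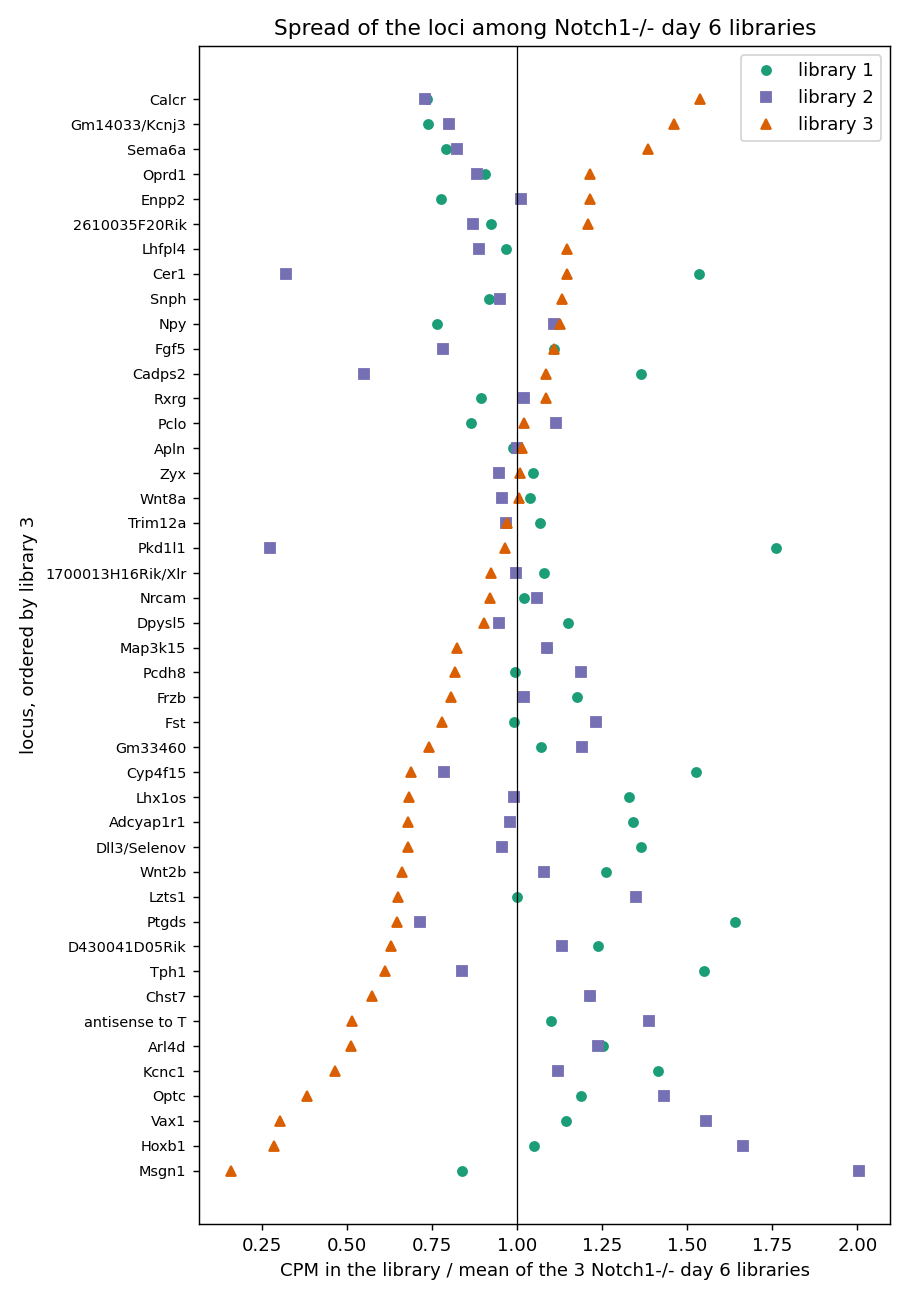
CPM of 44 of the 45 loci in each Notch1-/- day 6 library divided by the mean of the 3 (horizontal axis), with loci ordered by library 3. Library 3 (triangles) is the lowest for 25 loci, and Msgn1, Hoxb1 and Vax1 at the bottom have their highest value in library 2 (squares).

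The loci were spread over the genome. No pair of neighbouring members lay within 200 kb, the gap set for a cluster. The closest pair was Kcnc1 and Tph1 on chromosome 7, which are 205.949 kb apart (53651838 to 53694074 and 53900024 to 53927907). The next was Hoxb1 and Arl4d on chromosome 11, with a gap of 5289.73 kb. Chromosome 6 held 6 of the loci (13.3%, against 4.99% of all loci of at least 5 CPM): Calcr, Cadps2, Zyx, Npy, Adcyap1r1 and Lhfpl4. Chromosome 2 held 5, chromosomes 7, 11 and X held 4 each, and chromosomes 10 and 16 held none. By their linked genes, 40 of the 45 were protein-coding (88.9%, against 88.8%). Another 4 were linked to noncoding genes (8.89% against 2.42%), counting the locus that merges Gm14033 with Kcnj3. A share of exon bases with the opposite strand was seen in 12 (26.7% against 40.5%).

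The comparison of WT day 6 with WT day 0 did not enter the choice of loci by its direction and shows what the same loci did in normal differentiation. All 45 were tested, and 11 rose and 6 fell, while 28 were not called (adjusted p under 0.05 by Benjamini-Hochberg, from the quasi-likelihood test of edgeR). Among the 23991 loci tested, 43.1% were called: 18.4% rose and 24.7% fell. The median log2 change was 0.27 over the 45 and -0.12 over all loci tested.

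Genes of the streak, the mesoderm and the forebrain were among those that rose in WT cells. Vax1 rose by 4.46 on the log2 scale (SE 0.64, adjusted p = 0.000179), Frzb by 3.60 (SE 0.53, adjusted p = 0.000228) and Msgn1 by 4.58 (SE 1.04, adjusted p = 0.00361). The loci opposite Eomes, Lhx1 and T rose by 3.04 (SE 0.59), 4.78 (SE 0.95) and 2.33 (SE 0.49). Cer1 (6.87, SE 1.69), Lzts1, Tph1, Wnt2b and Pclo were the others called higher, in edgeR's test. Over 20 other settings the call of Pclo was made in 8, and those of Wnt2b and Tph1 in 14 each. Pclo was not called with upper quartile scaling or in a fit of only the WT groups, nor was Wnt2b in either. For all of the loci called higher but Pclo, all 3 WT day 6 libraries lay above all WT day 0 libraries.

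Loci that fell in WT cells included Trim12a (-6.87, SE 0.84, adjusted p = 5.8e-05, edgeR) and the Gm14033/Kcnj3 locus (-1.42, SE 0.36). The Dll3/Selenov locus (-1.22, SE 0.33), Rxrg (-1.65, SE 0.46), Wnt8a (-1.21, SE 0.37) and Npy (-1.98, SE 0.74, adjusted p = 0.0458) fell too. Without WT day 6 library 1, 3 were called lower, and without library 2, 2. Wnt8a, Rxrg and Npy lost their call in both cases. Npy was called lower in 8 of the 20 settings, and lost its call also without any 1 of the Notch1-/- day 6 libraries and in a fit of only the WT groups.

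At day 0, the comparison of Notch1-/- with WT cells shows the same loci before differentiation, and its direction was not used in the choice. Of the 45, 2 were higher, 12 were lower and 31 were not called in Notch1-/- cells. Among the 23991 loci tested, 9.56% were called, with 3.71% higher and 5.86% lower. The median log2 difference was -0.68 over the 45 and -0.08 over all loci tested (edgeR's quasi-likelihood test).

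Lower at day 0 were the locus opposite T (-3.63, SE 0.59, adjusted p = 0.00245, edgeR), Hoxb1 (-3.05, SE 0.78) and Wnt8a (-2.24, SE 0.38, adjusted p = 0.00301). Cyp4f15 (-2.79, SE 0.64), Lhfpl4 (-2.13, SE 0.46), D430041D05Rik (-2.05, SE 0.36) and Snph (-2.03, SE 0.44) were lower as well. So were Cadps2, Enpp2, Chst7 and the Gm14033/Kcnj3 and 1700013H16Rik/Xlr loci (from -1.20 to -2.32). T itself had 8.23, 5.12 and 2.97 FPKM in WT day 0 and 0.522, 0.238 and 0.426 FPKM in Notch1-/- day 0, without overlap. Npy (2.81, SE 0.67, adjusted p = 0.0204, edgeR) and Tph1 (2.39, SE 0.57, adjusted p = 0.0216) were higher.

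The day 0 calls depended on single libraries. The 12 lower loci became 6 without Notch1-/- day 0 library 2 or WT day 0 library 1, 7 without WT day 0 library 3, and 18 without WT day 0 library 2. The 2 higher became 0 without WT day 0 library 1 or 3, 1 without Notch1-/- day 0 library 2, and 4 without its library 1. With the replicate number as a block, which treats same-numbered libraries as pairs, 2 of the 45 were higher and 16 lower. Over all loci 1365 were higher in place of 889. Markers of feeder fibroblasts (19 genes summed) ranged from 1298 to 4217 CPM in WT day 0 and from 656 to 2577 CPM in Notch1-/- day 0, and their part in these differences was not tested.

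**Figure D4:**
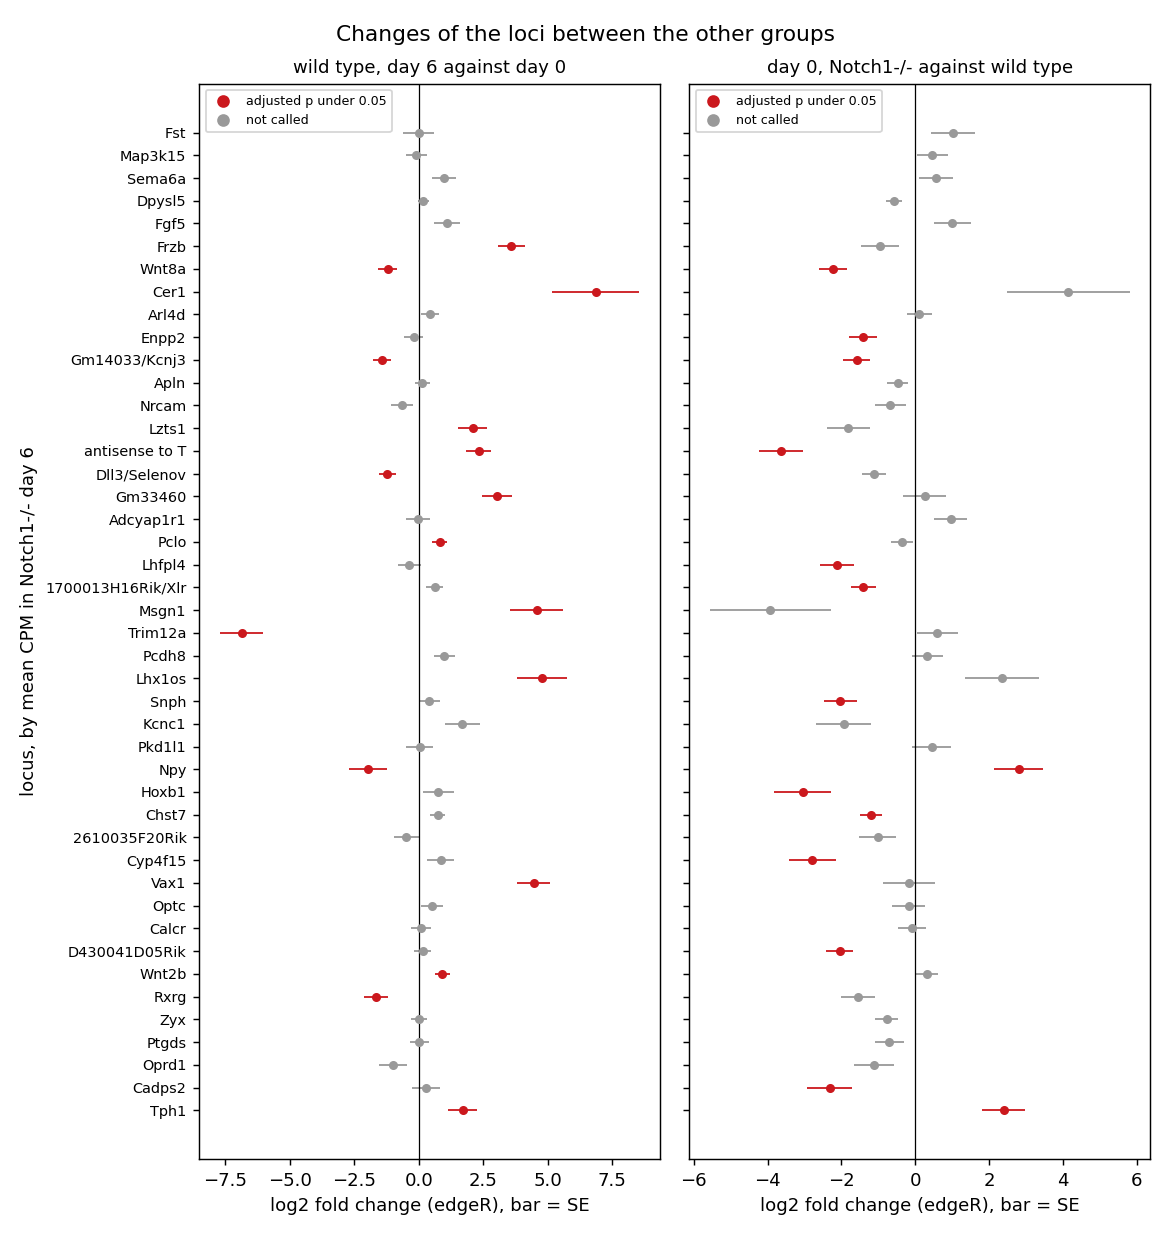
Log2 fold change of 44 of the 45 loci, with its SE as a bar, in WT cells from day 0 to day 6 (left) and in Notch1-/- against WT cells at day 0 (right), with loci in rows and those of adjusted p under 0.05 in red (edgeR). Red points lie on either side on the left (11 higher and 6 lower) and mostly on the lower side on the right (2 higher and 12 lower).

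Genes of the same pathways that are not among the 45 were compared between Notch1-/- and WT cells at day 6, with the lists chosen when results of these data were known. Over all loci tested 13.7% were higher and 14.4% lower (edgeR, adjusted p under 0.05), and the median log2 difference was 0.01. Of 12 further streak genes 8 were higher and 0 lower, with a median of 1.51. Nodal, the signal that induces the streak, was higher by 1.41 (SE 0.22), and its inhibitor Lefty2 by 1.37 (SE 0.31). Both were also present at day 0. Lefty2 means were 247 CPM in WT day 0 and 227 CPM in Notch1-/- day 0. At day 6 they were 74.4 CPM in WT and 187 CPM in Notch1-/- libraries, so that Notch1-/- day 6 lay below both day 0 means. Nodal means were 104 and 73.2 CPM in WT and Notch1-/- day 0, and 51.8 and 134 CPM at day 6. Of these 12 only 5 shared under 50% of their exon length, and Nodal and Lefty2 were the 2 of the 5 that were higher. Of 18 tail bud genes 10 were higher and 3 lower, with Wnt3a (4.06, SE 0.51), Vrtn (1.87, SE 0.32) and the Notch ligand gene Dll1 (2.97, SE 0.60) among the higher. The lower were the homeobox gene Cdx2 (-3.12, SE 0.61), Rspo3 (-1.28, SE 0.42) and Gdf11 (-1.10, SE 0.32), named after their values were seen. Summed over 16 tail bud genes, WT day 6 libraries held 517, 517 and 440 CPM, which overlapped with Notch1-/- day 6. Of these WT sums Greb1 alone took 224, 236 and 175 CPM, against 81.1, 66.3 and 48.3 CPM in Notch1-/- day 6.

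Wnt ligands were divided, with 4 higher and 3 lower of 15, and so were Wnt feedback genes and targets, with 4 higher and 3 lower of 17. Among the latter Apcdd1 (-2.39, SE 0.29) and Nkd1 (-1.32, SE 0.34), both inhibitors of the pathway, were lower. Dact1 (1.29, SE 0.28) and Nkd2 (0.95, SE 0.29), which also act against the pathway, were higher, and were named after their values were seen. Frzb, a further inhibitor gene, is one of the 45. Of 10 genes of the Nodal pathway 4 were higher and 2 lower. FGF pathway genes gave 2 higher and 4 lower of 13. Fgf4 was higher, with means of 122 CPM in Notch1-/- and 44.0 CPM in WT day 6, and the receptor genes Fgfr2 (-2.72, SE 0.33) and Fgfr3 (-3.17, SE 0.59) were lower.

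Hox genes gave 0 higher and 11 lower of 12 tested besides Hoxb1, with a median of -4.31. Hoxc9 (-7.98, SE 0.44), Hoxd11 (-6.50, SE 0.53) and Hoxd4 (-4.26, SE 0.40) were among them, and 13 of the 39 Hox genes listed were linked to a locus. Of 6 primed epiblast genes besides Fgf5, 5 were higher and 0 lower, including the DNA methyltransferase gene Dnmt3b (2.64, SE 0.39) and Otx2 (2.37, SE 0.48). Notch pathway and oscillating genes gave 4 higher and 4 lower of 16. Hey2, a direct Notch target, was lower (-4.10, SE 0.40).

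Cardiac, endothelial and blood, and visceral endoderm markers were mostly lower in Notch1-/- day 6, while the lists of other lineages were not. Of 9 cardiac progenitor genes 0 were higher and 6 lower, of 13 endothelial and blood genes 0 and 11, and of 10 visceral endoderm genes 0 and 9. Definitive endoderm genes other than Cer1 gave 1 higher and 1 lower of 7, and naive pluripotency genes 4 higher and 0 lower of 13. For primordial germ cell genes it was 1 higher and 2 lower of 8. Neural progenitor genes gave 2 higher and 1 lower of 11. Their summed level over 9 genes was 23.3 to 34.2 CPM in Notch1-/- day 6 and 12.3 to 14.3 CPM in WT day 6, with 6 of the 9 under 1 CPM. Feeder fibroblast markers summed to 137 to 151 CPM in Notch1-/- day 6 and to 1238 to 1638 CPM in WT day 6. The part of these cell types in the levels of the 45 loci was not tested.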

How the data were processed

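For each merged locus the authors deposited a whole-number count per library. They also deposited FPKM, by definition scaled for length and depth, and the merged transcript models. Named in the submitters' processing notes are DESeq, HTSeq 0.5.4p3, Cufflinks 2.1.1 and TopHat2 2.0.8, and the build mm9. The strand setting is not given in the sources used here. Per the labels, poly(A) RNA was sequenced in pairs of reads.

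Gene names were inferred by matching exon and intron lengths to GENCODE transcripts on the same chromosome and strand (36 of the 45 loci), an intron or gene length with gene order (4 and 1) or as merged genes (3), and no coordinates were converted. The 4 named by an intron length with gene order were Cer1, Hoxb1, Arl4d and Chst7, and the 1 named by gene length was Msgn1. The search by structure on a wrong chromosome linked 18 loci, against 16296 on the right one. Of 2147 loci linked by an intron length with gene order, 53 also found a match on a wrong chromosome. Antisense and overlapping loci cannot be separated.

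Tests used edgeR 4.0.16 (R 4.3.3) with TMM scaling (0.908 to 1.14), its filter for expressed loci (23991 kept), 1 mean per group over all 12 libraries, and Benjamini-Hochberg adjustment; SE is the log2 change divided by the square root of F. The calculation was tested on simulated counts with the same spread set for all loci, which leaves the varied spread of these libraries unchecked. Alternatives used DESeq2 1.42.0 and limma 3.58.1 on log2 of FPKM plus 1 or 0.1. Replicates differed beyond sampling noise (chi-square per degree of freedom of 38.83 to 396.2). Same-numbered day 0 libraries of the 2 genotypes deviated together (correlations of 0.435, 0.314 and 0.254, against -0.321 to 0.101 for different numbers). No pairing is stated in the labels, and the main fit used none.

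The members and lists were chosen with earlier results of these data known. Members named in the text include the 12 highest by CPM, the 12 highest by ratio, the 3 nearest each limit on either side, those in a gene list and up to 6 per direction with the smallest p in each contrast; of each list up to 4 other genes by p for the day 6 genotypes. Other members, and genes opposite them, were named after their values were seen. Roles were assigned from general knowledge. The values of 1 of the 45 loci are counted in the totals but not reported or drawn here.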

Additional observations from a re-analysis of the deposited data

Results flagged for a closer look

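For several genes the libraries of day 0 and day 6 were ordered oppositely in the 2 genotypes by CPM, with all 3 libraries of WT day 6 on one side of all WT day 0 libraries and all Notch1-/- libraries the other way. The difference between the genotypes was not tested, and for the 45 loci the choice fixed the direction in Notch1-/- cells. Among these loci the log2 change in WT cells was -6.87 for Trim12a, -1.98 for Npy, -1.65 for Rxrg, -1.42 for the Gm14033/Kcnj3 locus, -1.22 for the Dll3/Selenov locus and -1.21 for Wnt8a. In Notch1-/- cells it was 2.15 for Trim12a, 2.52 for Npy, 3.76 for Rxrg, 4.37 for Gm14033/Kcnj3, 3.44 for Dll3/Selenov and 5.30 for Wnt8a.

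Among listed genes outside the 45, 8 had this order, with all day 6 libraries below all day 0 libraries in WT and above them in Notch1-/- cells. The WT change was -1.67 for the Nodal co-receptor gene Tdgf1, -0.95 for Nodal, -0.28 for Epha1 and -1.76 for Wnt3a. It was -2.41 for Wnt7a, -0.43 for Wnt10b, -3.18 for Cdx1 and -1.09 for Dnmt3b. The opposite order held for Hoxc9 (4.66 in WT and -2.90 in Notch1-/- cells), Hoxd11 (4.79 and -2.67), Hoxa9 (4.98 and -2.92), Postn (1.45 and -4.97) and Twist2 (1.29 and -4.35). In Notch1-/- cells the change of the 8 was 1.14 for Tdgf1, 0.84 for Nodal, 2.52 for Epha1, 1.70 for Wnt3a, 0.74 for Wnt7a, 1.44 for Wnt10b, 1.79 for Cdx1 and 1.21 for Dnmt3b. Not called in 1 of the genotypes, by edgeR's adjusted p, were Epha1 (0.182 in WT), Wnt10b (0.214 in WT), Twist2 (0.0655 in WT), Wnt7a (0.228 in Notch1-/-) and Cdx1 (0.0657 in Notch1-/-). The Tdgf1 locus shares 92.95% of its exon length and its Notch1-/- means were 0.220 and 0.495 CPM. By FPKM Tdgf1 had means of 354 at day 0 and 337 at day 6 in Notch1-/- cells, so that the increase seen in its counts was not seen there. These differences between the genotypes were not tested either.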

How the results depend on the processing

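The number of loci chosen was 45. It was 80 with a fold limit of 3, 21 with a limit of 6, 29 by FPKM and 14 when every Notch1-/- day 6 library had to reach 4 times the highest other. Leaving out 1 library gave 39 to 56, and 27 of the 45 were kept in all 12 such sets. Vax1 was lost without Notch1-/- day 6 library 2, and Msgn1 without that library or without WT day 6 library 1 or 2. Under 3 other scalings 40 were kept throughout. With a gap of 1000 kb there was 1 pair of neighbours.

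For WT day 6 against day 0, limma on log2 of FPKM plus 0.1 gave 3356 loci lower and 7 members higher. With FPKM plus 1 these were 3212 and 3, with 2 members lower. Leaving out 1 library gave 8 to 13 members higher and 2 to 6 lower, and over all loci 3511 to 4959 higher and 4412 to 6627 lower.

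At day 0, DESeq2 called 1594 loci higher and 2120 lower. The limma fit with FPKM plus 0.1 gave 443 and 620, with 1 member higher and 3 lower, and with FPKM plus 1 it gave 445 and 566, with 1 and 1. A fit of these 2 groups alone gave 355 and 351, with 0 and 4. Leaving out 1 library gave 0 to 4 members higher and 6 to 18 lower, and over all loci 550 to 2548 higher and 558 to 3435 lower. Over all loci, the largest counts came without WT day 0 library 2, more were also called without Notch1-/- day 0 library 1 (which gave the 4 members higher), and fewer without Notch1-/- day 0 library 2 or 3 or WT day 0 library 1 or 3.

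With the replicate number as a block, 1365 loci were higher at day 0 and Dpysl5, Lzts1, Dll3/Selenov and Rxrg joined the lower members, with no call lost. In the blocked fit of only these 2 groups, added after the data were seen, 2 members were higher and 12 lower, and Snph, Chst7 and 1700013H16Rik/Xlr lost their call. For WT day 6 against day 0, the block gave 14 members higher and 6 lower. There the same-numbered libraries had correlations of 0.209, 0.196 and 0.039, against -0.227 to 0.029 for different numbers. Whether the numbers pair these libraries is not stated in the labels.

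For Notch1-/- against WT at day 6, a fit of only these groups gave 5585 higher and 5470 lower, and leaving out 1 library 1912 to 3981 and 2373 to 4164, the lowest counts higher coming without WT day 6 library 1 or 2. For Notch1-/- day 6 against day 0, limma gave 2316 (FPKM plus 0.1) and 2145 (FPKM plus 1) lower, and leaving out 1 library gave 3006 to 4718 higher and 3323 to 5345 lower. Upper quartile scaling moved the median of all loci in WT cells from -0.12 to -0.29, and in Notch1-/- cells from -0.02 to -0.18, where higher loci became 37.1% of calls in place of 47.8%. No called member changed sign under any setting. The cause of these differences was not tested.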
